A study of Danio rerio with 11 samples.

Results

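Solute carrier genes were examined in whole zebrafish embryos of 3 ages, kept in clean medium or with oil emulsion. Members were the genes whose platform annotation gave 1 symbol only, beginning with slc and a digit, and whose log2 signal reached 6 in at least 1 of the 11 arrays. Each gene was read from its probe set of highest mean. The array carried 136 genes with such a symbol, on 157 probe sets, and 95 of them were members, out of 6466 genes that passed the same signal floor. The other 41 never reached the floor. The nearest below it were slc12a3, slc13a1 and slc25a44a, whose highest log2 signals were 5.93, 5.87 and 5.79, and the nearest at or above it were slc17a9b, slc12a9 and slc34a2a at 6.001, 6.02 and 6.04. Floor values were met in all 11 arrays by 68 members, only at 96 h post fertilization (hpf) by 8, only at 72 hpf by 2 and only at 48 hpf by 1. The member slc7a6os carries the prefix because it lies opposite a solute carrier gene, and is not known as a carrier itself.

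Solute carriers are membrane proteins that move amino acids, sugars, ions, metals, nucleotides and metabolic acids across the cell surface and the membranes of organelles. Many work by coupling the uptake of a nutrient to the sodium gradient that the sodium pump maintains. In a fish embryo the yolk feeds all tissues at first, and the gut, the kidney tubule and the liver take over absorption, reabsorption and nutrient storage around the time the larva begins to feed. Expression of particular carriers is therefore commonly used to mark the absorptive cells of gut and kidney.

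Each array measured total RNA pooled from the 30 embryos of a cup with 100 ml of medium, on Affymetrix zebrafish arrays. Control cups held no emulsion and were collected at 48 hpf (1 array), 72 hpf (3 arrays) and 96 hpf (2 arrays). Exposed cups held 250 mg of oil emulsion from the Gulf of Mexico shoreline for 48 h. Emulsion from Gulfport was tested from 0 to 48, 24 to 72 and 48 to 96 hpf, and emulsions from Fort Morgan and Perdido Key were tested from 24 to 72 hpf, with 1 array each. All signals below are log2 values after robust multi-array averaging (RMA), and differences are on the same scale. Array medians lay between 6.37 and 6.42. The arrays were split at the median of their lower quartiles into a set of 5 and a set of 6, and each set held controls of 72 and 96 hpf and exposed arrays. Separate cups or spawnings for the replicate controls are not stated in the labels, and p-values therefore measure only the spread between these arrays.

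Among control embryos, the step from 72 to 96 hpf was marked by higher signals of carriers known from the gut and kidney. Peptide, phosphate, bile acid and lactate carriers rose the most, by between 1.42 and 2.73. In all, 13 of 95 members (13.7%) rose, against 6.29% of the 9803 probe sets tested, and 1 member (1.05%) fell, against 3.31%. The tests were made with limma over the 6 control arrays, at a Benjamini-Hochberg adjusted p under 0.05. Of the 13 that rose, 7 were at the floor only in arrays of 96 hpf. These could enter the set only because they were high there, so the share that rose is a description and is not a measure of how often carriers rise. With the floor lifted, 22 of the 136 genes on the array (16.2%) rose, against 4.55% of 15502 probe sets, and 2 (1.47%) fell, against 2.01%. The median difference was 0.09 over the members and -0.04 over all probe sets tested. In whole embryos, more cells of a type and more RNA per cell cannot be told apart.

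The intestinal carriers gave the clearest example. Signal of slc15a1b, the proton-coupled peptide transporter of the brush border, was 3.12 in the control of 48 hpf, 3.37, 3.09 and 3.18 at 72 hpf, and 6.12 and 5.77 at 96 hpf. The ages of 48 and 72 hpf lay together and both arrays of 96 hpf stood clear of them. Over the last step its log2 signal rose by 2.73 (SE 0.14, limma adjusted p = 1.65e-05). Its signals of 48 and 72 hpf lay below the lower quartile of every array (4.75 to 4.84) and no detection call was made, so a level above background at these ages is not shown and no fold is given. The ileal sodium-bile acid cotransporter gene slc10a2 measured 5.18 at 48 hpf, 5.42, 5.55 and 5.54 at 72 hpf, and 7.14 and 6.81 at 96 hpf. It rose 2.77-fold over the last step (log2 difference 1.47, SE 0.13, limma adjusted p = 0.000261). For slc6a19a.1, which belongs to the family of the neutral amino acid transporter of the mammalian gut and kidney, the signals were 4.80, then 5.42, 5.18 and 5.33, then 6.03 and 6.56. It rose by 0.98 (SE 0.16, limma adjusted p = 0.00901), and without the second control array of 96 hpf the rise was 0.72 with an adjusted p of 0.0514. Of 14 intestine carriers listed, 7 were on the array and 5 reached the floor. These 3 risen genes reached it only in arrays of 96 hpf, so the share among the 5 says nothing about the list. With the floor lifted, 5 of the 7 rose, against the 4.55% of probe sets above. The list was chosen with earlier results of these data known, so this share is a description and not a test of intestine carriers. The other two genes that reached the floor, the iron exporter gene slc40a1 and the divalent metal transporter gene slc11a2, had differences of 0.06 and 0.21 that did not pass.

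Genes listed as kidney carriers were the next group. In whole embryos the list does not show in which organ their signals rose. Of 16 listed genes, 9 were on the array, and with the floor lifted 6 of the 9 rose from 72 to 96 hpf, against 4.55% of probe sets. This list, too, was chosen with earlier results of these data known, and the share is a description. At the floor 6 were measured and 4 rose, but slc34a2a, slc5a12 and slc22a2 reached it only in arrays of 96 hpf. The sodium-phosphate cotransporter gene slc34a2a measured 3.33 at 48 hpf, 3.60, 3.58 and 3.53 at 72 hpf, and 5.67 and 6.04 at 96 hpf. The control arrays of 72 hpf spanned less than 0.1, and both arrays of 96 hpf lay far above them (log2 difference 2.28, SE 0.13, limma adjusted p = 2.76e-05). As for slc15a1b, the earlier signals lay below the lower quartile of every array, and no fold is given. Its paralog slc34a2b followed another course, with signals of 5.58 at 48 hpf, 6.18, 5.99 and 6.24 at 72 hpf, and 6.88 and 7.05 at 96 hpf. It rose in both steps, by 0.55 (SE 0.15, limma adjusted p = 0.0402) and then by 0.83 (SE 0.12, limma adjusted p = 0.00434). The sodium-coupled lactate carrier gene slc5a12 measured 4.59, then 4.97, 4.82 and 5.40, then 6.35 and 6.61. It rose 2.67-fold over the last step (log2 difference 1.42, SE 0.18, limma adjusted p = 0.00201), although its controls of 72 hpf were the most scattered of the risen genes (SD 0.30, n = 3). The organic cation transporter gene slc22a2, whose mammalian relative works in the kidney, had signals of 5.53, then 5.80, 5.68 and 5.72, then 6.30 and 6.64. Its rise of 0.74 (SE 0.13, limma adjusted p = 0.0102) was 0.57 without the second control array of 96 hpf, with an adjusted p of 0.0817. The remaining kidney carriers, the phosphate transporter genes slc20a1a and slc20a1b, had differences of 0.24 and -0.05 and did not pass.

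Risen genes outside these lists came from several compartments. The glucose-6-phosphate translocase gene slc37a4a, which acts in the endoplasmic reticulum in glucose release, measured 5.95 at 48 hpf, 6.47, 6.33 and 6.64 at 72 hpf, and 7.63 in both arrays of 96 hpf. It rose in both steps, by 0.53 (SE 0.15, limma adjusted p = 0.0476) and by 1.15 (SE 0.12, limma adjusted p = 0.00077), while its paralog slc37a4b differed by 0.20 from 72 to 96 hpf and did not pass. The mitochondrial carrier gene slc25a43 likewise rose in both steps, from 6.46 to 7.17, 7.25 and 7.01 and then to 8.39 in both arrays of 96 hpf (log2 difference 1.24 in the last step, SE 0.11, limma adjusted p = 0.000318). The dicarboxylate cotransporter gene slc13a2 rose 2.14-fold and then 1.77-fold. Its last step of 0.82 rested on the whole set of arrays, because the adjusted p of 0.0321 went above 0.05 when any of 4 of the 6 control arrays was left out, with values up to 0.149. Without the second control array of 96 hpf the difference was 0.49, and without the first it was 1.16. The copper importer gene slc31a1 rose by 0.72 from 8.19, 8.15 and 8.18 to 8.75 and 9.04 (limma adjusted p = 0.00747, and 0.0683 without the second array of 96 hpf). The Golgi nucleotide sugar carrier gene slc35b4 rose by 0.62 (limma adjusted p = 0.0158), and the mitochondrial uncoupling protein family gene slc25a27 by 0.52 (limma adjusted p = 0.0426). Without the second array of 96 hpf the difference of slc35b4 was 0.51, and neither of these genes passed.

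The single member that fell was slc6a11a, a carrier gene for the inhibitory transmitter GABA. Its signal was 5.67 at 48 hpf, 5.28, 5.41 and 5.34 at 72 hpf, and 4.64 and 4.40 at 96 hpf. It fell by 0.82 (SE 0.11, limma adjusted p = 0.00359). All its control values lay below the floor, and the array that brought it into the set was the exposed array of 48 hpf at 6.15. Within the sets of arrays defined by the lower quartile, the difference between 96 and 72 hpf was 2.84 and 2.69 for slc15a1b, 2.11 and 2.46 for slc34a2a, and 0.50 and 1.14 for slc13a2, in the higher and the lower set.

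**Figure D1:**
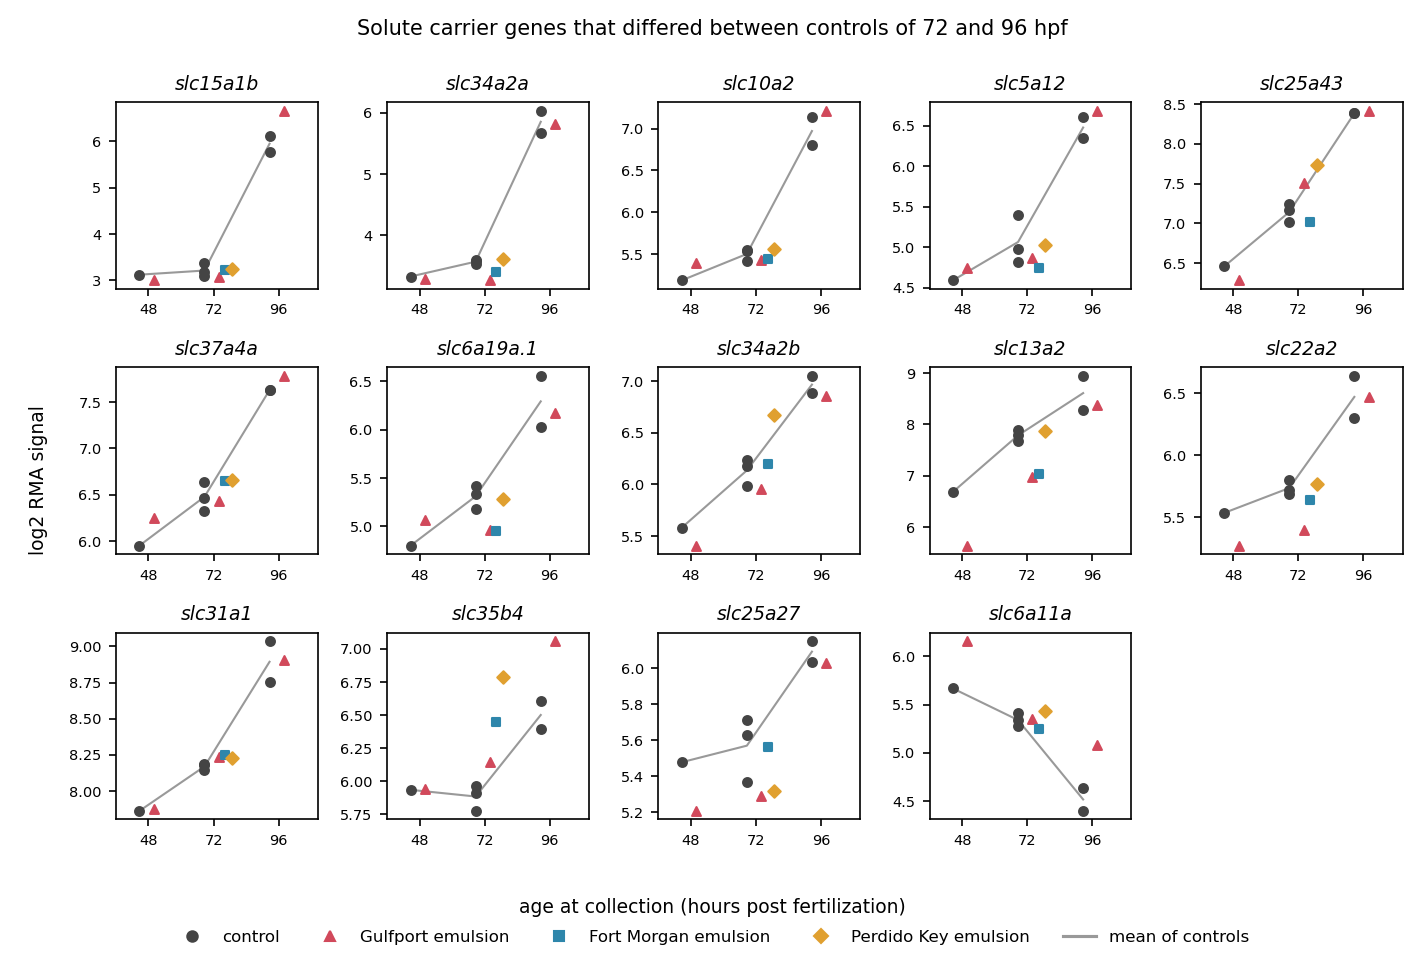
Log2 RMA signal (vertical axis, scaled for each gene) against age at collection in hours post fertilization for the 14 solute carrier genes that differed between controls of 72 and 96 hpf. Each symbol is an array, shifted sideways by treatment so that arrays of an age do not overlie, and the line joins the control means. Both control arrays of 96 hpf lie above all 3 of 72 hpf for 13 genes and below them for slc6a11a, and slc15a1b and slc34a2a stay near their level at 48 hpf until 72 hpf.

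Markers of the organs moved over the same interval. Of 10 enterocyte markers, 6 were measured and 4 rose, and their summed signal was 13.27 to 13.55 at 72 hpf and 14.34 to 14.45 at 96 hpf on the log2 scale. Of 9 kidney markers, 3 were measured and 1 rose, cdh17 by 1.12, with summed signals of 8.48 to 8.75 and 9.13 to 9.33. The 6 exocrine pancreas markers moved the most. All 6 rose, and their summed signal went from 11.36 to 11.83 at 72 hpf to 14.78 to 15.02 at 96 hpf. Hepatocyte markers, with 9 of 10 measured, showed sums of 15.19 to 15.34 and 15.21 to 15.36, and 1 of the 9 rose. Of 11 liver carriers listed, 6 were on the array and 4 were measured, and of these 4 only slc37a4a rose over that step. With the floor lifted, 3 of the 6 rose (slc37a4a, slc2a2 and slc13a5a), against 4.55% of 15502 probe sets. The lists were chosen with earlier results of these data known, so these shares are a description. The part of the organ markers in the carrier results was not tested. Of 27 related transport genes that the symbol rule does not take, 11 were measured. In this step 4 of them rose and 1 fell, and the sodium pump subunit gene atp1a1a.4 had the largest rise, 1.07. Of all probe sets tested, 6.29% rose and 3.31% fell in this step, and 9.23% and 8.71% in the step from 48 to 72 hpf. That earlier step rests on 1 control array of 48 hpf. From 48 to 72 hpf 7 of the 11 had risen and none had fallen.

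The earlier step, from 48 to 72 hpf, involved other carriers for the most part, although 4 genes rose in both steps. Here 14 members (14.7%) rose, against 9.23% of probe sets tested, and 6 members (6.32%) fell, against 8.71%. The median difference was 0.16 over members and -0.03 over all probe sets tested. The 48 hpf control was 1 array, and its spread was taken to be that of the other controls. The largest rise was that of slc25a3a and the largest fall that of slc4a1a.

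The largest rise belonged to slc25a3a, a mitochondrial phosphate carrier gene that supplies phosphate for ATP synthesis. It measured 6.50 at 48 hpf, 8.64, 8.77 and 8.88 at 72 hpf, and 9.02 and 9.34 at 96 hpf. The first step was 2.27, or 4.81-fold (SE 0.17, limma adjusted p = 0.000146). The second, at 0.41, did not pass. Its paralog slc25a3b lay between 11.79 and 11.98 in the controls of 48 and 72 hpf and did not pass. The potassium-chloride cotransporter gene slc12a7b rose from 7.40 to 8.58, 8.77 and 8.88, by 1.34 (SE 0.15, limma adjusted p = 0.00111). The potassium-dependent sodium-calcium exchanger gene slc24a4a rose from 6.11 to 7.30, 7.15 and 7.25, by 1.12 (SE 0.15, limma adjusted p = 0.0025).

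Several of the risen genes handle transmitters or amino acids. The synaptic vesicle amino acid transporter gene slc6a17 rose from 6.60 to 7.65, 8.09 and 8.10 (log2 difference 1.35, SE 0.19, limma adjusted p = 0.00308). The vesicular GABA and glycine transporter gene slc32a1 rose from 8.45 to 9.12, 9.47 and 9.22, by 0.81 (SE 0.17, limma adjusted p = 0.0144). Beside them, 3 of 8 neuron markers rose and 1 fell, with summed signals of 13.23 at 48 hpf and 13.22 to 13.40 at 72 hpf, and the part of these markers in the result was not tested. The cationic amino acid transporter gene slc7a3a rose by 0.89 (limma adjusted p = 0.0118). The neutral amino acid exchanger gene slc7a8a rose by 0.69 (limma adjusted p = 0.0232), or 0.71 with an adjusted p of 0.0525 without the second control array of 72 hpf. The others that rose were slc2a3a, slc16a3b and slc17a5, which are a glucose carrier, a monocarboxylate carrier and the lysosomal sialic acid carrier, and the 4 genes that rose in both steps (slc13a2, slc25a43, slc34a2b and slc37a4a).

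The largest fall belonged to slc4a1a, the band 3 anion exchanger of red blood cells. It measured 9.52 at 48 hpf, 7.36, 7.50 and 6.78 at 72 hpf, and 6.54 and 6.80 at 96 hpf. It fell by 2.30 from 48 to 72 hpf (SE 0.26, 4.94-fold, limma adjusted p = 0.00116), and the exposed array of 48 hpf, at 9.65, was close to its control. The second step was -0.55 and did not pass, but without the third control array of 72 hpf it was -0.76 with a limma adjusted p of 0.0208. Of 7 erythroid markers, 4 were measured, 2 of them fell in this step and 3 in the next, and their summed signal was 14.41 at 48 hpf, 14.03 to 14.10 at 72 hpf and 12.89 to 12.90 at 96 hpf. The part of the erythroid markers in the result was not tested.

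A pair of facilitative carriers of the glucose transporter family fell with it. In medaka, relatives of slc2a11b and slc2a15b are needed for yellow and white pigment cells. Signal of slc2a11b was 7.06 at 48 hpf, 5.998, 5.64 and 5.93 at 72 hpf, and 5.69 and 5.31 at 96 hpf, a fall of 1.21 over the first step (SE 0.20, limma adjusted p = 0.00538). Signal of slc2a15b was 7.45, then 6.47, 6.62 and 6.39, then 6.36 and 6.19, a fall of 0.95 (SE 0.15, limma adjusted p = 0.00433). Beside them, 1 of 6 melanocyte markers was measured, dct, which fell in both steps, and its part in the result was not tested. The acyl-CoA synthetase gene slc27a2a fell by 0.72 (limma adjusted p = 0.00828) and the glial glutamate transporter gene slc1a3a by 0.71 (limma adjusted p = 0.0102). The carnitine-acylcarnitine carrier gene slc25a20 fell by 0.45 with an adjusted p of 0.0484, which exceeded 0.05 when any of the 5 replicated control arrays was left out.

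**Figure D2:**
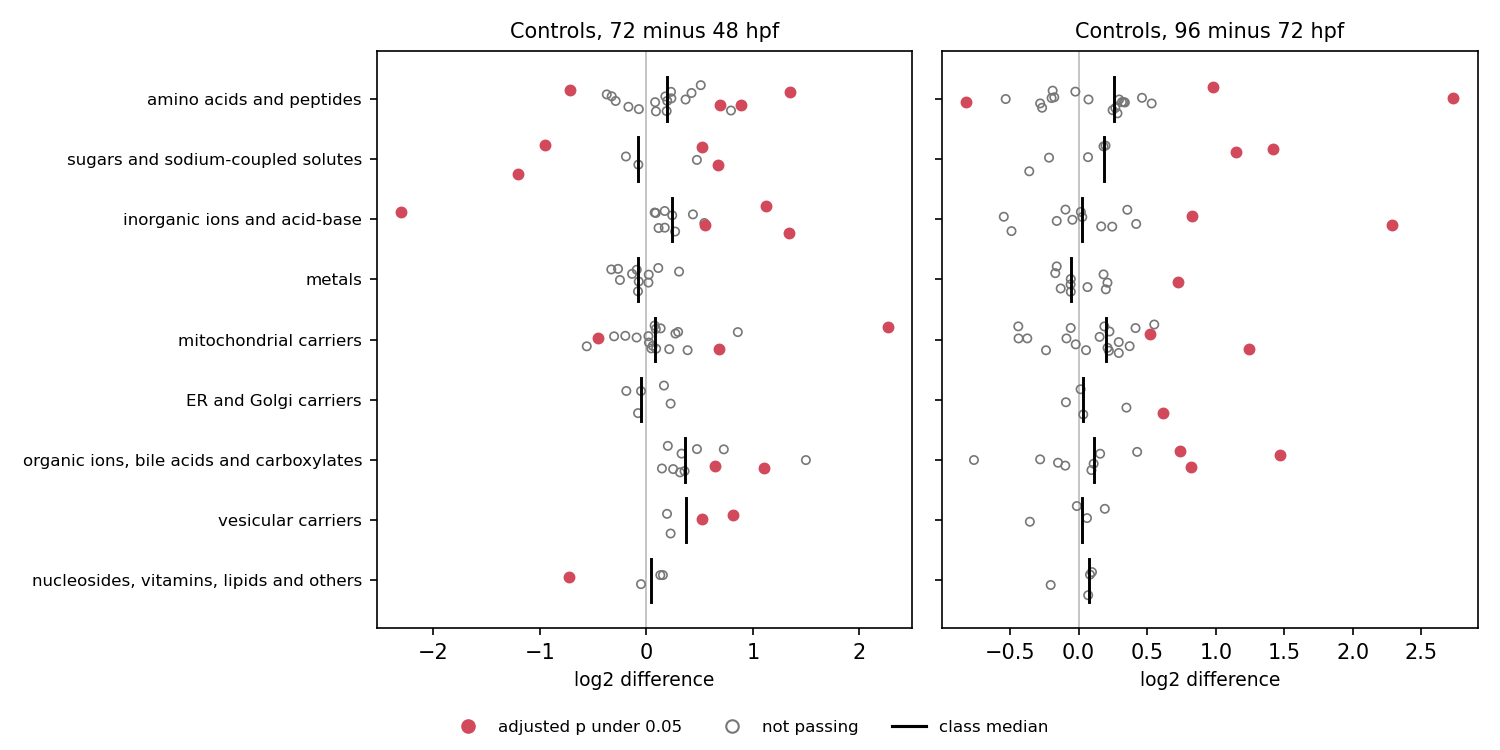
Log2 difference between control ages (horizontal axis) for the 95 solute carrier genes in 9 substrate classes, from 48 to 72 hpf on the left and from 72 to 96 hpf on the right. Each point is a gene, filled where the limma adjusted p was under 0.05, and black bars are class medians. Filled points stand on both sides of 0 on the left, and 13 of the 14 on the right stand above 0.

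By substrate class, the organic ion, bile acid and carboxylate carriers lay above 0 for all 11 measured genes from 48 to 72 hpf, with a median of 0.36, and 2 of them rose. Over all 95 members 67 lay above 0 in that step, and 46.2% of all probe sets tested did. Every one of these differences used the same 1 control array of 48 hpf. From 72 to 96 hpf the median of the organic ion, bile acid and carboxylate class was 0.11 and 3 rose, slc10a2, slc13a2 and slc22a2. The 19 amino acid and peptide carriers, with slc7a6os left out, had medians of 0.20 and 0.27, with 3 that rose and 1 that fell in the first step and 2 that rose and 1 that fell in the second. The 11 metal carriers had medians of -0.08 and -0.06. None of them passed from 48 to 72 hpf and slc31a1 alone rose afterwards. Mitochondrial carriers, 20 genes, had medians of 0.08 and 0.20, and 2 rose in each step while 1 fell in the first. Among the 13 inorganic ion and acid-base carriers, 3 rose and 1 fell in the first step and 2 rose in the second. Of the 7 carriers of sugars and sodium-coupled solutes, 2 rose and 2 fell in the first step and 2 rose in the second. Among 5 endoplasmic reticulum and Golgi carriers slc35b4 alone passed, in the second step. The 4 vesicular carriers had a median of 0.37 in the first step, in which 2 rose, and of the 4 members of the nucleoside, vitamin and lipid class 1 fell there. Neither class had a member that passed from 72 to 96 hpf. The smaller tissue lists held few measured genes. Of 18 neuron and glia carriers 3 were measured, with slc32a1 risen and slc1a3a fallen in the first step. Of 6 pigment cell carriers 2 were measured, with slc24a4a risen and slc2a15b fallen, and of 7 erythroid carriers 4 were measured, with slc4a1a fallen. With the probe sets used, none of these passed from 72 to 96 hpf, and no ionocyte carrier was measured. Of all 95 members, 65 passed in neither step, and no gene that rose in the first step fell in the second.

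The next comparison asked which carriers differed in embryos kept with emulsion from 24 to 72 hpf. When the 3 exposed arrays were taken as a group against the 3 controls, no member passed, against 0.571% of probe sets tested. At an unadjusted limma p under 0.05, 9 members were higher (9.47%, against 4.97% of probe sets) and 1 was lower (1.05%, against 3.78%). Exposed and control arrays did not overlap for 7 members on the higher side (7.37%, against 6.92%) and for 4 on the lower side (4.21%, against 6.58%). The median difference was 0.02 over members and -0.02 over all probe sets tested, and 90 of the 95 differences lay within 0.5 of 0. The share of all probe sets within that range was not computed. The sums of some marker lists lay outside the range of the controls in all 3 exposed arrays. Exocrine pancreas markers summed to 9.82, 10.55 and 10.93 with Gulfport, Fort Morgan and Perdido Key emulsion, below the 11.36 to 11.83 of controls. Enterocyte markers summed to between 13.60 and 13.66, above the 13.27 to 13.55 of controls, and kidney markers to between 8.755 and 8.80, above 8.48 to 8.750. The margins of these last sums were small beside the spread of the controls, and the kidney sum held 3 of 9 markers. Melanocyte sums lay within the range of the controls. Erythroid markers summed to 13.93 with Gulfport and with Fort Morgan emulsion, below the 14.03 to 14.10 of controls, and to 14.09 with Perdido Key. Neuron sums were 12.95, 13.06 and 13.33 in the same order, against 13.22 to 13.40. The hepatocyte sum was below the controls in the Gulfport array alone (15.11, against 15.19 to 15.34). The skeletal muscle sum was above them in the Perdido Key array alone (16.08, against 16.05 to 16.06). The part of these markers in the carrier results was not tested. Stress responsive carriers, of which 5 of 10 listed were measured, had a median of 0.07 and none passed.

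The lowest p belonged to slc11a2, a divalent metal transporter gene of gut and erythroid iron uptake. It measured 8.08 with Gulfport, 7.99 with Fort Morgan and 7.99 with Perdido Key emulsion, against 7.77, 7.70 and 7.69 in controls. The groups did not overlap, but the difference of 0.30 (SE 0.08) had a limma adjusted p of 0.321. For slc35b4, the exposed arrays read 6.15, 6.45 and 6.78 in the same order and the controls 5.78, 5.92 and 5.97, a difference of 0.58 (SE 0.16, limma adjusted p = 0.321). With the spread of the replicated controls in place of that of the 6 arrays, the same difference had an adjusted p of 0.0451. The phosphate carrier gene slc20a1b read 10.41, 9.98 and 9.75 against 9.49, 9.73 and 9.56, a difference of 0.45 with a limma adjusted p of 0.507. Other members with an unadjusted p under 0.05 and higher exposed means were the amino acid carriers slc43a2a, slc43a2b, slc7a8a and slc1a4, the phosphate carrier slc20a2 and the monocarboxylate carrier family gene slc16a9b.

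On the lower side, slc25a3a was the gene with the smallest p. It read 7.69 with Gulfport, 8.21 with Fort Morgan and 8.55 with Perdido Key emulsion, all below the controls of 72 hpf at 8.64, 8.77 and 8.88 and above the control of 48 hpf at 6.50. The pooled difference was -0.61 (SE 0.20, limma adjusted p = 0.448). The dicarboxylate cotransporter gene slc13a2 was split between sites, with 6.97 and 7.04 in the Gulfport and Fort Morgan arrays and 7.87 in the Perdido Key array, against 7.67, 7.80 and 7.89 in controls. Its pooled difference was -0.49 (SE 0.22, limma adjusted p = 0.577). Without the Perdido Key array it was -0.78, with an adjusted p of 0.0285. The Gulfport and Fort Morgan arrays belong to the set of higher lower quartile and the Perdido Key array to the other, so this difference between sites and the array set cannot be told apart. Against controls of the same set, slc13a2 differed by -0.77 in the higher set and by 0.07 in the other, and slc25a3a by -0.81 and -0.21. In the other set this is the Perdido Key array against the second control of 72 hpf alone.

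Taken singly, the Gulfport array of 72 hpf was the exposed array in which members passed. Here 2 members were higher (2.11%, against 1.74% of probe sets) and 1 was lower (1.05%, against 0.969%). This test took the spread of the replicated controls for an array without replicates. At the adjusted threshold, and only there, the shares of members and of all probe sets were compared, and they were near each other. An unadjusted limma p under 0.05 was found for 23 of the 95 members (24.2%), 12 with higher and 11 with lower signals. The share of all probe sets at the unadjusted level was not computed, so whether members stood out from the rest there was not tested.

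The larger difference was that of slc16a9a, a monocarboxylate transporter family gene. It read 8.87 in the Gulfport, 7.75 in the Fort Morgan and 6.01 in the Perdido Key array, against 6.78, 5.73 and 6.07 in the controls of 72 hpf. The Gulfport and Fort Morgan arrays stood above all controls of 48, 72 and 96 hpf, and the Perdido Key array lay among them. The Gulfport difference was 2.68 (SE 0.45, 6.39-fold, limma adjusted p = 0.0239) and the Fort Morgan difference was 1.55 (SE 0.45, limma adjusted p = 0.473). Its paralog slc16a9b read 8.16, 7.30 and 7.03 in the same order, against 7.09, 6.53 and 6.56, and the Gulfport difference of 1.43 (SE 0.30) had a limma adjusted p of 0.0506. Against controls of the same array set, slc16a9a differed by 1.88 in the set with Gulfport and Fort Morgan and by 0.27 in the set with Perdido Key. In controls slc16a9a was variable, with an SD of 0.53 at 72 hpf (n = 3) and signals of 6.09 and 7.15 at 96 hpf.

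The neutral amino acid transporter gene slc1a4 read 8.53 in the Gulfport, 8.09 in the Fort Morgan and 7.77 in the Perdido Key array, against 7.79, 7.68 and 7.35 in controls. The Gulfport and Fort Morgan arrays lay above the controls and the Perdido Key array fell within their range. Against controls of the same array set, the differences were 0.73 and 0.09. The Gulfport difference was 0.92 (SE 0.18, 1.89-fold, limma adjusted p = 0.0427). The difference of slc25a3a in the Gulfport array was -1.07 (SE 0.17, limma adjusted p = 0.018). Without the second or the third control array of 72 hpf the count of members that passed was 0, and the adjusted p of slc16a9a, slc1a4 and slc25a3a lay between 0.0555 and 0.0994. The call of slc1a4 was also lost without either control array of 96 hpf (adjusted p = 0.0654).

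Beside these genes, 4 of the 6 exocrine pancreas markers were lower in the Gulfport array. Summed signals of the 8 neuron markers were 12.95 in the Gulfport, 13.06 in the Fort Morgan and 13.33 in the Perdido Key array, and 13.22 to 13.40 in the controls of 72 hpf. Skeletal muscle markers, 5 of 6 measured, summed to 16.06 in the Gulfport array and 16.05 to 16.06 in the controls. The part of the pancreas and neuron markers in the carrier results was not tested.

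**Figure D3:**
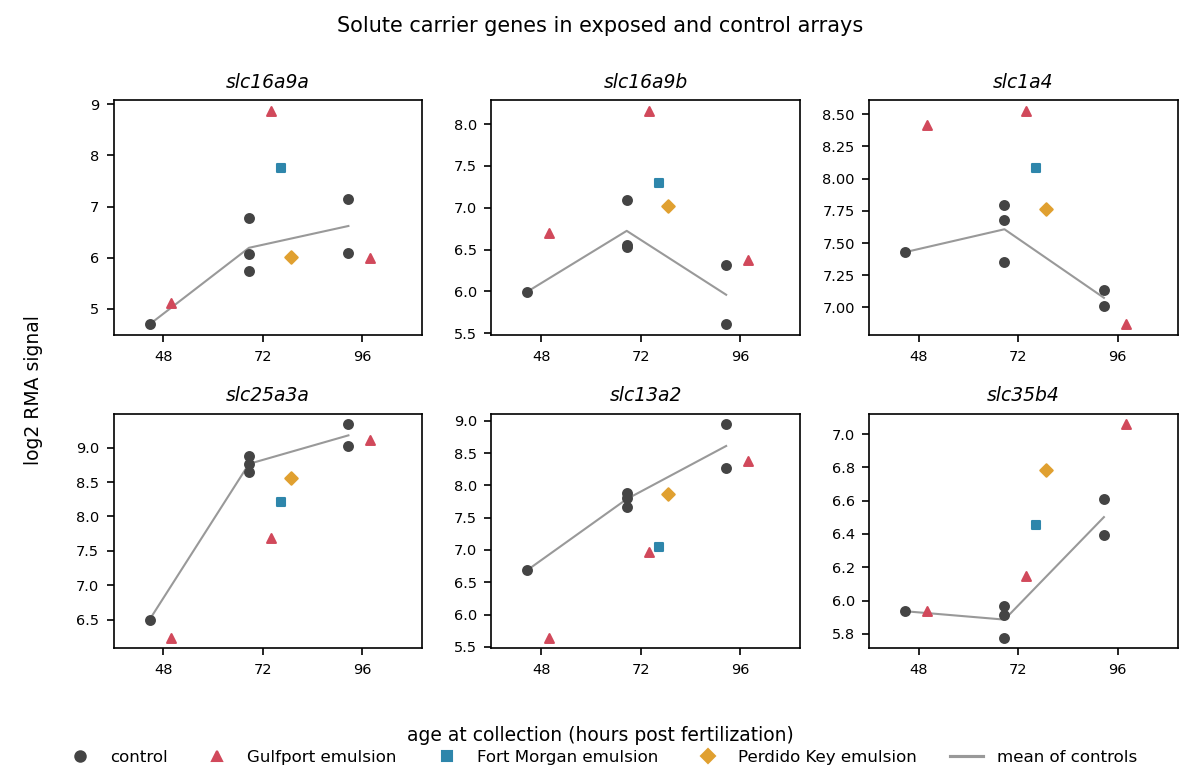
Log2 RMA signal (vertical axis, scaled for each gene) against age at collection in hours post fertilization for 6 solute carrier genes. Each symbol is an array, shifted sideways by treatment, and the line joins the control means. In the 72 hpf column the Gulfport triangle is the highest array for slc16a9a, slc16a9b and slc1a4 and the lowest for slc25a3a, and the Perdido Key diamond lies among the controls for slc16a9a, slc16a9b, slc1a4 and slc13a2.

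In the Fort Morgan array no member passed, against 0.224% of probe sets, and 7 had an unadjusted limma p under 0.05 (7.37%, against 6.61%). The lowest was that of slc38a4, an amino acid carrier gene of the liver list, at 7.36 against 8.14, 8.20 and 7.85 in controls (difference -0.70, SE 0.16, limma adjusted p = 0.246). In the Perdido Key array no member passed either, against 0.224%, and 6 had an unadjusted limma p under 0.05 (6.32%, against 4.75%), all with higher signals. Its largest difference was that of slc35b4, 0.90 (SE 0.15, 1.87-fold, limma adjusted p = 0.0758). The test of the Gulfport array against the mean of the other sites passed for no member, against 0.0306% of probe sets, and 16 members had an unadjusted limma p under 0.05 (16.8%, against 9.44%). In that test the difference between sites was 1.99 for slc16a9a (SE 0.48, limma adjusted p = 0.265), 0.60 for slc1a4 (SE 0.19, limma adjusted p = 0.391) and -0.69 for slc25a3a (SE 0.18, limma adjusted p = 0.271). The arrays of the sites share the same 3 controls.

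Exposure from 48 to 96 hpf gave no member that passed in the Gulfport array, against 0.0918% of probe sets, and 5 members had an unadjusted limma p under 0.05 (5.26%, against 4.63%). The lowest was that of slc15a1b, at 6.66 against 6.12 and 5.77 in controls (difference 0.71, SE 0.19, limma adjusted p = 0.497). Enterocyte markers summed to 14.52 in this array, above the 14.34 to 14.45 of the controls of 96 hpf. Kidney, erythroid and neuron sums also lay above the controls. Exocrine pancreas, skeletal muscle and melanocyte sums lay below them, and the hepatocyte sum lay within their range. The part of these markers in the carrier results was not tested. The genes that had passed at 72 hpf lay within or below the range of the controls here. Signal of slc16a9a was 6.005 against 6.09 and 7.15, signal of slc1a4 was 6.87 against 7.01 and 7.14, and signal of slc25a3a was 9.10 against 9.02 and 9.34. The test of the difference between the windows of 48 to 96 and 24 to 72 hpf passed for no member and for no probe set, and 17 members had an unadjusted limma p under 0.05 (17.9%, against 9.72%). The tests between windows, between sites and of the Gulfport array of 72 hpf all contain that lone array and are not separate evidence. For slc16a9a the windows differed by -3.29 (SE 0.66, limma adjusted p = 0.191), or by -3.82 with an adjusted p of 0.0476 without the first control array of 96 hpf.

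The 48 hpf pair, exposed to Gulfport emulsion from 0 to 48 hpf, held 1 array on each side. By a log2 difference of at least 1, no member was higher, against 0.265% of probe sets, and 1 was lower (1.05%, against 0.286%). That member was slc13a2, at 5.64 against 6.69 in the control. The next largest differences were those of slc1a4, at 8.41 against 7.43, and of the lysosomal sialic acid carrier gene slc17a5, at 6.53 against 7.47. Signals of slc7a3a were 7.84 and 7.08, and those of slc43a2a were 9.08 and 8.63. Of the 95 differences, 88 lay within 0.5 of 0, a range for which no share of all probe sets was computed. A limma test of the pair with the spread of the replicated controls, added after seeing the data, passed for no member, against 0.0612% of probe sets. At an unadjusted p under 0.05 it took 7 members (7.37%, against 3.73%), and the lowest p was that of slc17a5 (difference -0.94, SE 0.16, limma adjusted p = 0.203).

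**Figure D4:**
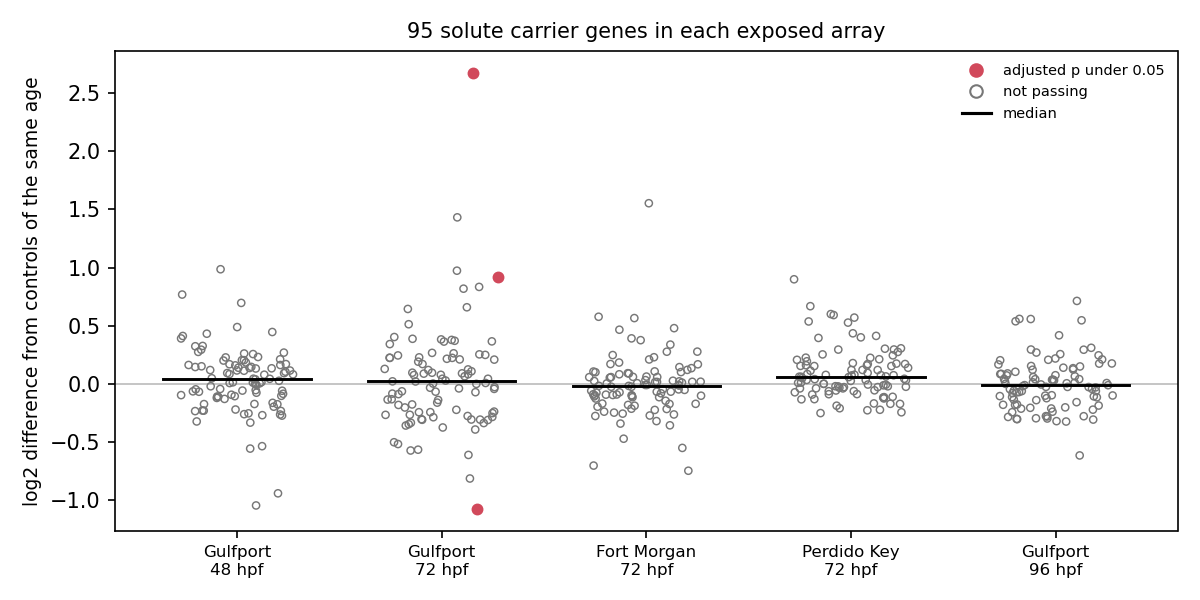
Log2 difference of each of the 95 solute carrier genes from the control mean of the same age (vertical axis) in the 5 exposed arrays (horizontal axis). Each point is a gene, filled where the limma adjusted p was under 0.05, and black bars are medians. The 3 filled points stand in the Gulfport array of 72 hpf, at 2.68, 0.92 and -1.07, and most points of every array lie within 0.5 of 0.

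The last comparison took all 11 arrays, with age as a factor, to ask which carriers differed with exposure by a shift common to all ages and sites. A difference present at 1 age or site only can be missed by it. No member passed, against 1.31% of probe sets. At an unadjusted limma p under 0.05, 11 members were higher (11.6%, against 6.01%) and 7 were lower (7.37%, against 5.37%). The lowest adjusted values were those of slc35b4 (0.46, SE 0.12, limma adjusted p = 0.126), the amino acid carrier gene slc43a2a (0.27, SE 0.07, limma adjusted p = 0.139) and slc37a4b (-0.28, SE 0.08, limma adjusted p = 0.146). This comparison and the one at 72 hpf share 6 arrays and are not separate evidence.

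Some members lay on the same side of the controls in every exposed array. Above all controls of the age stood slc25a20, slc35b4, slc43a2a and slc7a8a, 4 of 95 members, against 3.16% of probe sets, and below them stood slc37a4b, 1 member, against 2.05%. For slc43a2a the exposed signals were 9.08 at 48 hpf, 9.24, 9.04 and 9.04 at 72 hpf and 8.80 at 96 hpf, and the controls were 8.63, then 8.85, 8.89 and 8.86, then 8.47 and 8.73. For slc37a4b the exposed signals were 8.36, then 7.99, 8.39 and 8.32, then 8.39, and the controls were 8.68, then 8.46, 8.57 and 8.44, then 8.72 and 8.65. The margin of slc35b4 at 48 hpf was under 0.01, while its exposed array of 96 hpf, at 7.06, stood above controls of 6.39 and 6.61. The differences of slc25a20 and slc7a8a over all ages were 0.19 and 0.26, with limma adjusted p of 0.206 and 0.176.

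Where several probe sets of a member were tested, they could be set side by side. This was so for 11 of the 95 genes. For slc31a1 the second probe set differed by 0.64 between 96 and 72 hpf (limma adjusted p = 0.0857), beside 0.72 for the one used. For slc7a8a the second differed by 0.58 between 72 and 48 hpf and did not pass (limma adjusted p = 0.0632), beside 0.69 for the one used. With exposure at 72 hpf the pair differed by 0.29 and 0.27, and neither passed. For slc2a15b the calls were the other way about. The other probe set gave -0.44 from 48 to 72 hpf, which did not pass (limma adjusted p = 0.0801), and -0.55 from 72 to 96 hpf, which did (limma adjusted p = 0.0254). The one used gave -0.95, which passed, and -0.22, which did not. Several members are close paralogs, and whether their probe sets share signal was not assessed here.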

How the data were processed

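The authors deposited log2 signals per probe set, made with RMA per the submitters' processing notes. The program and its version are not given in the sources used here. Normalization in RMA brings all arrays to nearly the same distribution, so a change in total RNA per embryo is not visible. Groups and ages came from the sample titles. After 115 control probe sets were left out of 15617, 9803 were tested, those that reached log2 6 in 1 array or more. Symbols came from the platform annotation, and all 95 were found by Entrez ID in a RefSeq table of assembly GRCz12tu. A further gene with such a symbol is not reported here.

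The fits used lmFit and eBayes of limma 3.58.1 under R 4.3.3. Adjusted p-values follow Benjamini and Hochberg, were computed over all 9803 probe sets and were called under 0.05. Control ages were compared over 6 arrays and exposure at 72 hpf over 6. Age-adjusted exposure used 11 arrays. Lone arrays, windows and sites used a fit of 1 mean per group, with 3 residual degrees of freedom. Scripts were tested on simulated data. Marker sums are log2 of summed linear signals. Named genes are the members of largest difference past the threshold in each comparison, with open places filled by unadjusted p. At 48 hpf they are those of largest difference with a signal of at least 8, and others named there or in the Fort Morgan, Perdido Key and 96 hpf arrays were chosen after their values were seen. The members, lists and tests were chosen with earlier results of these data known. The number of arrays limits the precision. Figures were drawn with Python 3.11.15.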

Additional observations from a re-analysis of the deposited data

How the results depend on the processing

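With few arrays, most limits come from the controls. Over 132 counts of members under alternatives, 117 stayed within 1.5 times the reported count. Most of the 132 belong to comparisons in which no member had passed, and a count of 0 that stayed 0 was taken as unchanged. The tally therefore says little about the counts above 0, which are given below. From 72 to 96 hpf the count was 24 with no filter on low values, 8 with a floor of log2 7, which tests fewer genes, and 8 to 16 when a control array was left out, with 8 without the second array of 96 hpf. From 48 to 72 hpf it was 15 to 18 when a replicated control was left out. For exposure at 72 hpf it was 0 to 1, with 1 without the Perdido Key array, and 1 with the mean of the site contrasts. Over all ages it was 0 whichever array was left out, and 1 with the array set by lower quartile as a block, an alternative chosen after seeing the data (slc2a11b, 0.28, limma adjusted p = 0.0471). For the Gulfport array of 72 hpf it was 5 with trend and robust moderation, 6 with array weights and 0 to 5 when a control array was left out. There slc16a9a lost its call under trend and robust moderation (adjusted p = 0.117) and slc1a4 with arrays centred on their medians (adjusted p = 0.0528). The 48 hpf pair gave 0 by the limma test, beside 1 by size. The test between windows gave 1 without the first control array of 96 hpf. Apart from the effects of fewer genes or arrays, the cause was not tested. A lone array left out removes its own comparison, so no such value was computed.

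With the replicate number as a block over the controls of 72 and 96 hpf, 16 members passed, among them slc4a1a at -0.76 (limma adjusted p = 0.0127). The third control of 72 hpf has no array of its number at 96 hpf and adds nothing to this difference. The -0.76 is thus the same difference as without that array, and is not separate evidence. Whether the numbers pair the arrays is not stated in the labels. Same-numbered arrays correlated by -0.05 and -0.06 in their deviations from the group means. These values cannot decide it, since the deviations of the 2 arrays of 96 hpf mirror each other.

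Of 1218 values of single genes, 1180 kept direction and call, 25 lost and 4 gained the call, 2 moved and 7 changed sign, none of these 7 having passed. With an array left out, the difference of slc18a3a between 96 and 72 hpf ran from -0.048 to 0.15, and it was below 0 without the first control of 72 hpf or the second of 96 hpf. For exposure at 72 hpf, slc3a2b was -0.16 with array weights and ran from -0.11 to 0.42, below 0 without the third control or the Perdido Key array. There slc4a1a ran from -0.047 to 0.31, below 0 without the third control, and slc49a4 from -0.13 to 0.011, above 0 without the Fort Morgan array.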

Other observations

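The 41 solute carrier genes that never reached the signal floor included further carriers of absorptive and excretory organs. When the floor was lifted, 9 of the 41 rose from 72 to 96 hpf in controls, against 4.55% of 15502 probe sets, and 1 fell, against 2.01%, by limma with Benjamini-Hochberg adjustment. The genes described here were chosen after their values were seen. The neutral amino acid transporter family gene slc6a19b measured 3.09 at 48 hpf, 3.19, 3.06 and 3.31 at 72 hpf, and 5.07 and 5.36 at 96 hpf, a rise of 2.03 (SE 0.13, limma adjusted p = 2.43e-05). The sodium-sulfate cotransporter gene slc13a1 measured 3.96, 3.86 and 3.46 at 72 hpf and 4.66 and 5.33 at 96 hpf, a rise of 1.24 (SE 0.21, limma adjusted p = 0.00944). The glucose transporter gene slc2a2, known from liver and gut, rose by 0.82 from 3.73, 3.69 and 3.73 to 4.64 and 4.42 (SE 0.11, limma adjusted p = 0.00229). Rises of 0.87 in the urea transporter gene slc14a2 and 0.66 in the sodium-chloride cotransporter gene slc12a3 also passed, and the zinc transporter gene slc39a5 fell by 0.57. The others that rose were slc13a5a of the liver list, and slc25a48, slc2a11l and slc38a8b, which are on none of the tissue lists. The kidney list also held slc26a1, which did not pass. The signals of slc6a19b, slc13a1 and slc2a2 at 72 hpf lay below the lower quartile of every array, and no detection call was made, so a level above background at that age is not shown.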
